A study of Caenorhabditis elegans with 4 samples.

Results

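The regions described here are the binding regions of HAM-1 on chromosome V of Caenorhabditis elegans, located by chromatin immunoprecipitation and sequencing (ChIP-seq) in hermaphrodites of the first larval stage (L1) that had been fed. They were chosen by position alone, as every region that the authors' combined list places on chromosome V, and they number 956 of the 5713 regions in that list. The list of ChIP replicate 1 holds 807 regions on V and that of replicate 2 holds 385. All libraries came from strain OP102, which carries the unc-119 mutation ed3 and the transgene wgIs102. The transgene holds ham-1 fused to TY1, EGFP and FLAG tags, and a working copy of unc-119, written unc-119(+), that rescues the mutation. The transgene was introduced by bombardment and the line was not outcrossed, and whether the endogenous ham-1 gene was still present is not stated in the labels. Worms were grown at 20 °C and fixed in 2% formaldehyde, and chromatin was pulled down through the tag with antibodies to GFP for 2 ChIP libraries, next to 2 input libraries that have no region list here and entered no comparison. No strain without the tag and no other stage were compared. The labels do not say if the 2 replicates are separate cultures.

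HAM-1 has a winged-helix domain and acts in asymmetric neuroblast divisions, in which daughter cells of unequal size and fate are made. A ChIP-seq region is a stretch where fragments bound by the tagged protein were found more often than a control would give. Autosomes of C. elegans have a centre with little recombination and many conserved genes, and outer parts, the arms, with more recombination, more repeats and many fast-evolving gene families. Chromosome V is known for its large number of chemoreceptor genes, which encode receptors of sensory neurons. In a gene table of assembly WBcel235, 888 of the 1308 genes with chemoreceptor symbols of the sr and str families (67.9%) were on V, as were 167 of the 269 genes with nhr symbols (62.1%), which encode nuclear hormone receptors. That table gave names and chromosomes only, since its positions belong to a later build than the WS220 coordinates of the regions, and no region was assigned to a gene. For the same reason no sequence of a region is shown.

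Chromosome V had few called regions for its length. It carried 45.7 combined regions per Mb over a span of 20.9 Mb, against 62.3 per Mb on chromosomes I to IV together. Each span starts at position 1 and ends at the last base called in any of the lists. V held 19.9% of the autosomal regions (95% Wilson interval 18.8 to 21.1%), against 25.3% of the autosomal span, a ratio of 0.79 (two-sided exact binomial p = 1.22e-18, adjusted p = 7.32e-18 by the Benjamini-Hochberg method over 6 tests). The same ratio of shares was 0.80 in the replicate 1 list and 0.81 in the replicate 2 list. Set directly against I to IV, the density of V was 0.73 of theirs in the combined list. It was 0.75 in replicate 1 (38.6 regions per Mb on V, 51.8 on I to IV) and 0.76 in replicate 2 (18.4 and 24.3). Each of the other autosomes was denser in the combined list, from 53.7 per Mb on II to 74.2 on III. In replicate 2, V was not the lowest, with 18.4 regions per Mb against 18.3 on I. Counted by genes, V carried 19.1 combined regions per 100 protein-coding genes and I to IV between 23.8 (II) and 38.7 (III). With the sr and str genes left out of the gene numbers, V carried 23.3 per 100 and II, the next lowest, 24.99. All tests here treat regions as independent, which neighbours are not, so they describe these lists and not the spread between worms.

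Along V the density followed a broad rise in the centre, with low bins in both arms and the lowest in the right arm. In fixed bins of 1 Mb from position 1, the 20 whole bins of V held between 13 and 82 combined regions with a median of 39, against 18 to 110 with a median of 62 in the 60 whole bins of I to IV. The fullest bin, V:11000001-12000000, held 82 combined, 68 replicate 1 and 37 replicate 2 regions, and its neighbours on either side held 73 and 77 combined regions. These 3 bins together carried 232 regions, or 24.3% of those on V. The emptiest bin, V:17000001-18000000, held 13 combined, 10 replicate 1 and 4 replicate 2 regions. Bins next to it were low as well, with 25 regions in V:16000001-17000000 and 31 in V:18000001-19000000. In the left arm V:2000001-3000000 was low too, with 24 combined, 22 replicate 1 and 10 replicate 2 regions. Fewer than 30 regions were found in 5 of the 20 bins of V and in 2 of the 60 bins of I to IV.

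**Figure D1:**
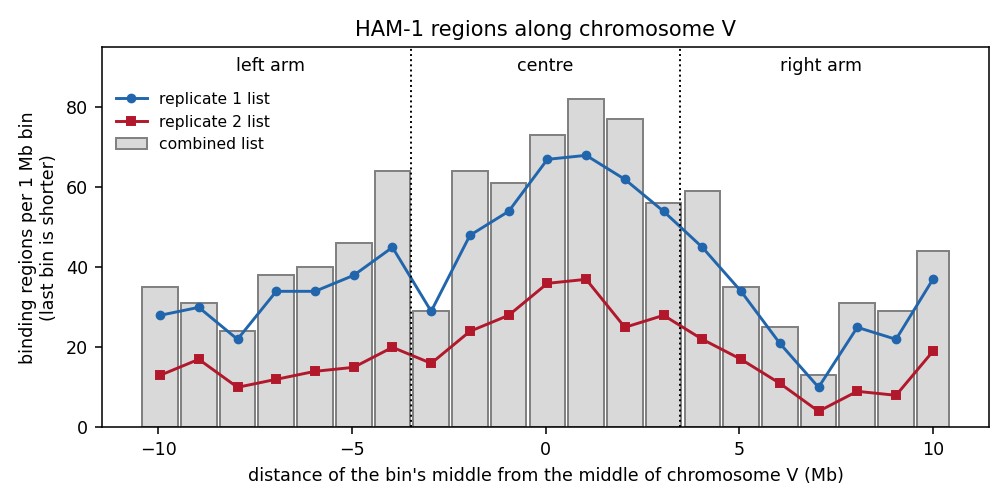
Number of HAM-1 regions in each 1 Mb bin of chromosome V, by distance of the bin's middle from the middle of the span in Mb; grey bars are the combined list, blue circles replicate 1, red squares replicate 2, and dotted lines separate the arms from the centre. Counts peak at 82 combined regions just right of the middle and fall to 13 in the right arm; the last bin is shorter than 1 Mb.

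The rise was not smooth. V:7000001-8000000, inside the centre, held 29 combined regions, fewer than the bin to its left (64) and the bin to its right (64). The dip was shallower in the replicates. Replicate 1 held 29 regions there, against 45 in the bin to the left and 48 in the bin to the right, and replicate 2 held 16, against 20 and 24. At the right end the density went up again: the last, shorter bin, from 20000001 to 20904057, held 44 combined, 37 replicate 1 and 19 replicate 2 regions, more than each of the 5 whole bins before it. The ranks of the bins were shared by the replicates (Spearman's rho 0.94 over 20 bins, given as a description, since bins share libraries).

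Divided into 3 equal parts of 6.97 Mb, V held 277 combined regions in the left arm, 442 in the centre and 237 in the right arm. These are 39.8, 63.4 and 34.0 regions per Mb. The right arm of V was the sparsest of the 5 right arms, which ran from 44.5 per Mb (IV) to 71.7 per Mb (III) on the other autosomes. The left arm of V was not the sparsest, since that of II held 35.2 per Mb and those of the rest between 54.8 and 59.9. The centre of V, at 63.4 per Mb, lay below the centres of I to IV (71.0 to 91.1 per Mb). In replicate 2 this order did not hold: the centre of V carried 27.8 regions per Mb, against 26.9 on I and 27.7 on II.

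**Figure D2:**
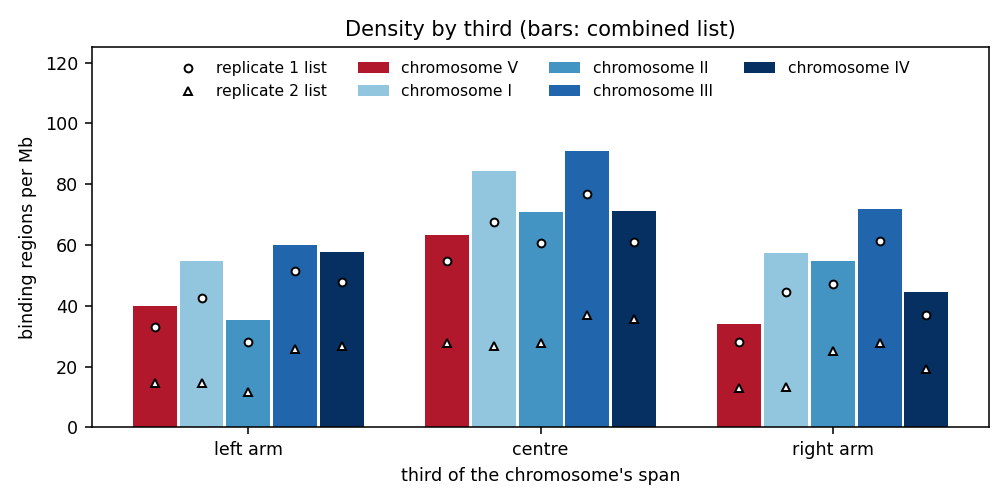
HAM-1 regions per Mb in the left arm, centre and right arm of chromosome V (red) and of chromosomes I to IV (blue shades); bars are the combined list, open circles replicate 1 and open triangles replicate 2. The right arm of V, at 34.0 per Mb, is the lowest bar of all, and the centre of V is the lowest of the centres in the combined list.

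The centre of V held 46.2% of its combined regions (43.1 to 49.4%), against 42.1% (40.6 to 43.7%) on I to IV, the highest share of the 5 autosomes. The difference of 4.09 percentage points had an interval of 0.58 to 7.62 and did not pass the threshold after adjustment (odds ratio 1.18, two-sided Fisher's exact p = 0.0236, adjusted p = 0.0635). The difference was larger in each replicate list, with 47.3% on V and 42.6% on I to IV in replicate 1 (odds ratio 1.21) and 50.4% and 43.7% in replicate 2 (odds ratio 1.31). It passed with some other choices of list, of arm length and of comparison chromosomes (adjusted p from 0.00613 to 0.108 over 11 alternatives), so whether V is more centred than the other autosomes rests on those choices. Between the arms of V, the left held 53.9% (49.6 to 58.2%) of the arm regions, against 50% by length. The ratio of left to right was 1.17 (replicate 1, 1.18; replicate 2, 1.12) and did not pass the threshold (two-sided exact binomial p = 0.0853, adjusted p = 0.128). Without the emptiest bin and the bin at the mirror position in the left arm, the ratio was 1.07. The emptiest bin was picked from these same counts (13 regions, against 38 in its mirror), so the lower ratio follows from the choice. On the other autosomes the combined ratio of left to right was 0.95 on I, 0.64 on II, 0.84 on III and 1.30 on IV. The ratios of those chromosomes were not tested.

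Neighbouring regions on V were far apart more often than on the other autosomes. The gap between neighbouring midpoints had a median of 10.5 kb (interquartile range 3.45 to 26.9 kb) on V, against 8.90 kb (3.21 to 20.6 kb) on I to IV. Gaps of 50 kb or more were 104 of 955 on V (10.9%), against 244 of 3833 (6.37%) on I to IV. By part, the median gap on V was 11.8 kb in the left arm, 8.43 kb in the centre and 13.0 kb in the right arm, and gaps of 50 kb or more made up 14.1%, 5.22% and 17.4%. On I to IV the medians were 10.4, 7.53 and 9.59 kb in the same order of parts. Taken singly, the left arm of II had a median gap of 16.1 kb, longer than in any part of V. There, 17.4% of gaps were 50 kb or more. The remaining arms of I to IV had medians from 8.39 kb (right arm of III) to 12.3 kb (left arm of I). Their gaps of 50 kb or more made up 3.66% (right arm of III) to 11.6% (right arm of IV). Gap lengths follow density and were not tested.

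**Figure D3:**
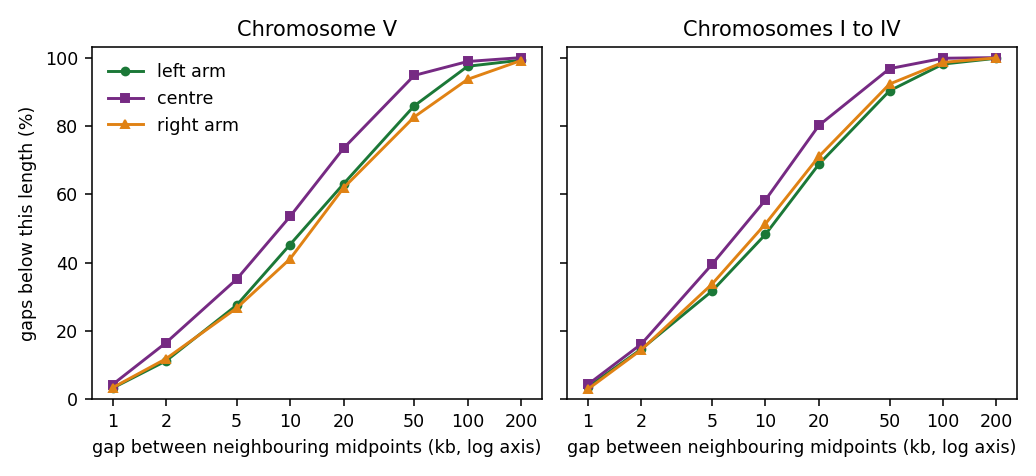
Cumulative share of gaps between neighbouring midpoints of combined regions by gap length in kb (log axis), for the left arm (green circles), centre (purple squares) and right arm (orange triangles) of chromosome V on the left and of chromosomes I to IV together on the right. On V the right arm stays lowest between 10 and 100 kb, where 17.4% of its gaps reach 50 kb or more.

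Gaps of 50 kb or more were found in all 3 parts of V, while the 4 of 200 kb or more lay in its arms, 2 in each. The longest in the right arm ran over 403.1 kb at V:18087235-18490332, and the next, of 370.0 kb, was at V:17353199-17723167, in the emptiest bin. The longest in the left arm ran over 399.5 kb at V:2694846-3094338, and another of 318.6 kb lay just before it at V:2281948-2600504. The longest in the centre was shorter, 186.5 kb at V:7248329-7434863, in the dip described above. No gap on I to IV was as long as the longest of each arm of V: their longest ran from 130.0 kb (III) to 260.6 kb (II). The replicate lists were nearly as bare in these stretches. Replicate 2 had no region in any of the 5 gaps just named, and replicate 1 had none in the second of the right arm, 2 in that of the centre and 1 in each of the rest. In windows of 100 kb, 21 of 209 on V (10.0%) held no combined region, of which 12 were in the right arm, 7 in the left and 2 in the centre. On I to IV 17 of 613 windows (2.77%) were empty, and none of these lay in a centre. By arm, the empty share was 10.0% in the left arm of V and 17.1% in its right arm. It was 9.80% in the left arm of II and 8.62% in the right arm of IV. The remaining arms of I to IV ran from 0 (right arm of II, left arm of III) to 5.17% (left arm of IV). Whether reads can be placed in the bare stretches was not tested, and a stretch with no call is not shown to be unbound.

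At short range the share of close neighbours was lower in the arms of V than in its centre, with intervals that overlapped. Gaps under 2000 bp were 13.8% (11.8 to 16.2%) on V and 15.2% (14.1 to 16.4%) on I to IV. In the centre of V they were 16.6% (13.4 to 20.3%), against 16.2% (14.5 to 18.1%) in the centres of I to IV. In both arms of V they were 11.5% (9.04 to 14.6%), against 14.6% (13.2 to 16.1%) in the other arms. The other arms differed, with 8.99% in the left arm of II and 11.6% in the right arm of IV. The remaining ones ran from 12.8% (left arm of I) to 18.2% (left arm of III). By whole chromosome, II had 12.3%, less than V, and I, III and IV had between 15.2% and 17.5%. Chains of 3 or more regions with successive midpoints under 2000 bp apart numbered 18 on V and took up 59 regions (6.17%), against 100 chains with 326 regions (8.50%) on I to IV. In the left arm of V such chains held 4.33% of the regions, against 8.08% in the left arms of I to IV, and in the right arm 3.80%, against 8.66%. In the centre they held 8.60% on V and 8.66% on I to IV. These shares were not tested. The largest chain of V had 6 regions within 5.93 kb at V:10856963-10862892, of which 2 were in both replicates, and the largest on I to IV had 5.

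The median width and the share of wide regions on V lay close to those on the other autosomes. The lower quartile of width was smaller on V (297 against 324 bp), which was not tested. The median width was 430.5 bp (297 to 618.25 bp) on V, against 429 bp (324 to 612 bp) on I to IV. By part of V the medians were 417 bp in the left arm, 441 bp in the centre and 435 bp in the right arm, and those of I to IV were 422, 435 and 426 bp. Regions of 1000 bp or wider made up 10.0% of the whole combined list. On V they were 92 of 956, or 9.62% (7.91 to 11.7%), against 9.51% (8.62 to 10.5%) on I to IV (odds ratio 1.01, two-sided Fisher's exact p = 0.902, adjusted p = 0.940). The interval of that difference ran from -1.86 to 2.33 percentage points. Of the 92 wide regions of V, 22 lay in the left arm, 50 in the centre and 20 in the right arm, which is 7.94%, 11.3% and 8.44% of the regions there. Regions narrower than 50 bp were 40 on V (4.18%) and 120 on I to IV (3.13%). By covered length, regions took up 2.18% of the left arm of V, 3.76% of the centre and 1.84% of the right arm, against 2.74%, 4.60% and 2.98% on I to IV.

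**Figure D4:**
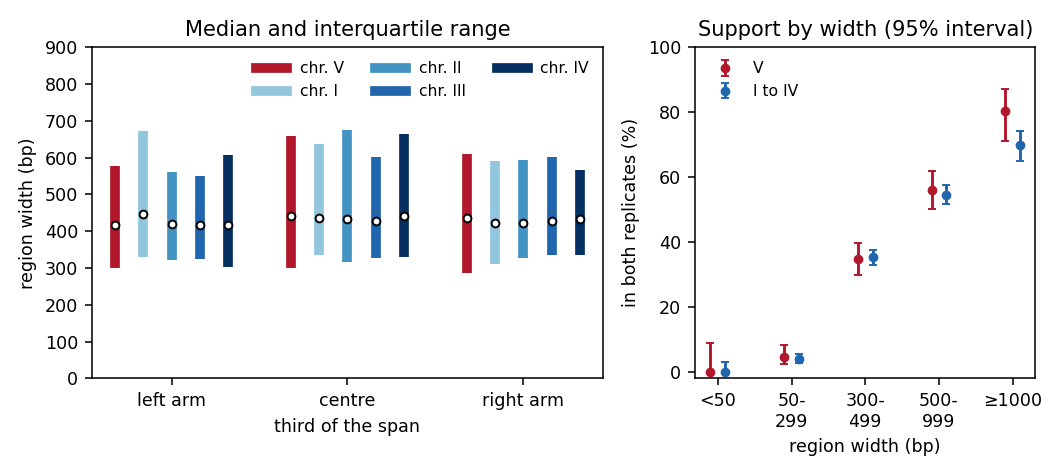
Left: median (open circles) and interquartile range (bars) of the width in bp of combined regions in the left arm, centre and right arm of chromosome V (red) and I to IV (blue shades). Right: share of combined regions that overlap both replicate lists, in %, by width class in bp, on V (red) and on I to IV together (blue), with 95% Wilson intervals; on V it goes from 0 below 50 bp to 80.4% at 1000 bp or wider.

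Support in the replicates was counted as an overlap of 1 bp or more. In the whole combined list 37.2% of regions overlapped regions of both replicates. On V these were 356 of 956, or 37.2% (34.2 to 40.3%), against 37.1% (35.6 to 38.6%) on I to IV, a difference of 0.15 percentage points with an interval of -3.23 to 3.61 (odds ratio 1.01, two-sided Fisher's exact p = 0.940, adjusted p = 0.940). Support on I to IV was uneven, with 26.8% on I, 38.1% on II, 38.5% on III and 45.0% on IV. Without chromosome I the comparison turned to the other side, 37.2% on V against 40.7% (odds ratio 0.87, Fisher's exact p = 0.0668, adjusted p = 0.100). Taken singly, replicate 1 overlapped 764 regions of V (79.9%), against 79.0% of the whole list, and replicate 2 overlapped 367 (38.4%), against 38.0%. On V 408 regions (42.7%) overlapped replicate 1 only, 11 overlapped replicate 2 only and 181 (18.9%) overlapped neither, next to 20.2% with neither in the whole list. Of the replicate 1 regions on V, 362 of 807 (44.9%) were overlapped in replicate 2, against 45.2% in the whole replicate 1 list. Of the replicate 2 regions on V, 369 of 385 (95.8%) were overlapped in replicate 1, against 96.9% in the whole replicate 2 list.

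Within V, the centre had the larger share of supported regions, by less than the tests could call. Regions in both replicates were 181 of 442 in the centre, or 41.0% (36.5 to 45.6%), against 175 of 514 in the arms, or 34.0% (30.1 to 38.2%). The difference of 6.90 percentage points (0.76 to 13.0) did not pass the threshold after adjustment (odds ratio 1.34, two-sided Fisher's exact p = 0.0317, adjusted p = 0.0635). It passed when neighbours closer than 500 bp were merged (odds ratio 1.44, Fisher's exact adjusted p = 0.0276) and in none of the other 6 alternatives. With arms of 25% of the span each the odds ratio was 1.18 (Fisher's exact adjusted p = 0.388), and with overlap asked of replicate 1 alone it was 1.05 (80.3% in the centre, 79.6% in the arms). The left arm had 33.2% (27.9 to 39.0%) and the right arm 35.0% (29.2 to 41.3%). The centre also had the larger share on I (31.0% against 23.6% in the arms) and on IV (47.7% against 43.0%). It had the smaller share on II (37.4% against 38.6%) and on III (37.3% against 39.2%). These differences on the other autosomes were not tested. Across the 20 whole bins of V the share ran from 24.1% in V:19000001-20000000 to 55.2% in V:7000001-8000000. The bin with the highest share was thus the dip in the centre, where 16 of 29 regions were in both replicates (interval 37.5 to 71.6%) and 8 were 1000 bp or wider. Most bins hold few regions and their intervals overlap widely. The number of regions in a bin and its share in both replicates did not go together on V (Spearman's rho -0.04 over 20 bins, a description only).

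Regions of V were on the weak side of the list. The whole combined list was divided by q-value into 4 classes of equal size, the strongest with q-values up to 1.24e-12 and the weakest from 0.000606. The strongest class held 22.5% (20.0 to 25.2%) of the regions of V, against 25.7% of those of I to IV, and the weakest held 28.0% (25.3 to 31.0%), against 23.2%. The weakest class took up 28.9% of the left arm of V, 25.8% of the centre and 31.2% of the right arm. These shares were not tested. A q-value reflects depth as well as binding. Within a single list all regions share the libraries, but depth along the chromosomes is not known and its part was not tested.

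Support was then set out by strength. In the strongest class 213 of 215 regions of V (99.1%) were in both replicates, against 89.3% on I, 95.5% on II, 97.1% on III and 97.0% on IV. In the next class 56.5% (49.9 to 62.8%) were, against 16.5% on I, 51.2% on II, 45.5% on III and 60.2% on IV. In the class after that the share on V was 6.80%, between 0 on I and 11.1% on IV. In the weakest class it was 0 of 268, which allows a share of up to 1.12% by the limit of 3 counts of the total for a count of 0 and has a Wilson upper bound of 1.41%. In the second class the interval of V overlapped those of II, III and IV and lay above that of I. Within the second class the left arm (52.4%), the centre (56.9%) and the right arm (61.4%) of V had intervals that overlapped. The centre's higher share over all classes thus stood beside its larger part of strong regions in the combined list. By median q-value the centre of V was stronger than its arms in replicate 1 (2.18e-05 against 9.35e-05). In replicate 2 it was weaker (0.000139 against 5.25e-05). Whether the part of the chromosome mattered at equal strength was not tested.

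**Figure D5:**
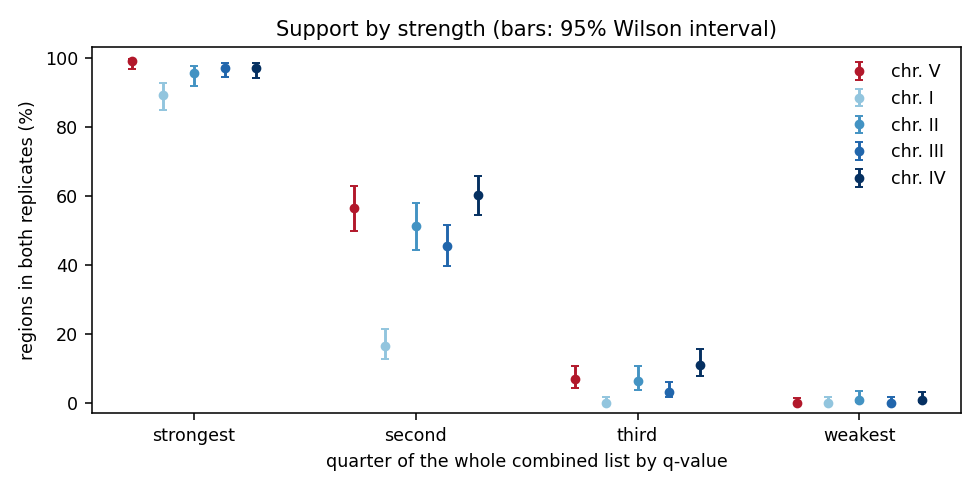
Share of combined regions that overlap both replicate lists, in %, for 4 classes of equal size of the whole list from the strongest to the weakest q-values, on chromosome V (red) and I, II, III and IV (blue shades), with 95% Wilson intervals. In the strongest class V is at 99.1%, and in the next V (56.5%) lies near II and IV and above I (16.5%).

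Width and support went together on V as on the other autosomes. Of the 40 regions of V under 50 bp, 0 were in both replicates, which allows up to 7.50% by the limit of 3 counts and has a Wilson upper bound of 8.76%. The share was 4.43% from 50 bp to under 300 bp, 34.7% from there to under 500 bp, 56.1% from there to under 1000 bp and 80.4% (71.2 to 87.3%) at 1000 bp or wider, where it was 69.9% (65.0 to 74.3%) on I to IV. Regions of V in both replicates had a median width of 574 bp, those in replicate 1 only 371 bp and those in neither 278 bp. A wide region meets the overlap rule more easily, so width and strength were not separated.

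V held 16.7% of all combined regions, 17.0% of those of replicate 1 and 17.1% of those of replicate 2. Its part of the strongest regions changed with the list and the number taken, and was not tested. In the combined list V held 3 of the 10 strongest regions, 1 in each part, and 11 of the 50 strongest (22%). It held 18 of the 100 strongest (18%) and 74 of the 500 strongest (14.8%) there. In replicate 1 it held 3 of the 10, 8 of the 50 (16%), 17 of the 100 (17%) and 79 of the 500 strongest (15.8%). In replicate 2 it held 1 of the 10, 7 of the 50 (14%), 14 of the 100 (14%) and 85 of the 500 strongest (17%). The 3 strongest regions of each part that overlapped both replicates are given here, with q-values from the combined list.

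In the left arm the first was V:6220812-6231172, the widest region of V at 10361 bp (q = 3.97e-237, rank 2 of the whole list). Each replicate covered it with 2 separate regions, and the one with the greatest overlap was 8925 bp wide in replicate 1 and 3163 bp wide in replicate 2, so the combined call was wider than either of these. The next were V:1151116-1152092 (977 bp, q = 3.68e-78) and V:5049210-5050187 (978 bp, q = 3.81e-64). Both had a single counterpart in each replicate that began within 100 bp of the combined start. V:1151116-1152092 bordered one of the long gaps, the 146.9 kb at V:1004194-1151115.

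In the centre the strongest was V:9088536-9089310, narrow at 775 bp (q = 4.54e-146), with the same start and end in replicate 1 and a region of 722 bp in replicate 2. It was followed by V:8933976-8940347 (6372 bp, q = 3.98e-127), the widest of the centre, which was 1 region in replicate 1 and 2 in replicate 2. The next was V:13654917-13659620 (4704 bp, q = 2.38e-110). It ranked 5 among the combined regions of V but 16 among those of replicate 1 and 17 among those of replicate 2. The lists differ in length, and each replicate covered this locus with 2 regions. The replicate ranks are those of the piece with the greatest overlap, and the reason for the difference in rank was not tested.

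In the right arm the strongest was V:19519472-19523198 (3727 bp, q = 3.30e-183, rank 3 of the whole list), with regions of 3633 bp in replicate 1 and 3793 bp in replicate 2. V:19528999-19529745 (747 bp, q = 2.14e-59) lay close after it, in the same 1 Mb bin, which otherwise had few regions and the lowest share in both replicates. Between them in strength was V:14684741-14689708, the widest of the right arm at 4968 bp (q = 8.63e-87). Strong regions were thus also found in stretches with few called regions.

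A few replicate regions of V were missing from the combined list. They were 34 of 807 in replicate 1 (4.21%, against 3.94% in the whole list) and 5 of 385 in replicate 2 (1.30%, against 1.38%). Their median q-value was 0.00226 in replicate 1 and 0.00349 in replicate 2. In replicate 1 the strongest of them had q = 1.69e-06, at rank 1937 of that list. In replicate 2 it was V:1803967-1806522 in the left arm, 2556 bp wide, which was the strongest region of V there (q = 8.41e-119, rank 3 of that list). It overlapped no region of replicate 1, and the nearest combined region lay 14.2 kb away. One locus, V:9984829-9985121 in replicate 1 and V:9984846-9985486 in replicate 2, was called in both replicates and not in the combined list. In the other direction, the strongest combined region of V without a replicate 2 counterpart was V:18637457-18638416 (960 bp, q = 1.11e-14), at rank 173 of V. The strongest with neither was V:19558759-19558778, 20 bp wide (q = 2.73e-05). These single regions were chosen after their values were seen.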

How the data were processed

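The authors deposited 3 region lists, for ChIP replicate 1, ChIP replicate 2 and both combined. Regions were called with PeakSeq and lie on WormBase WS220, per the file headers and rows, after a move from an earlier build that the comments do not name; no comment names a region of V as altered. Positions come with a deposited q-value (all under 0.01) and no height or count, so depth is unknown. Not given in the sources used here: the aligner, caller settings, use of inputs and way of combining. Coordinates are 1-based.

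A region was placed in a 1 Mb bin and in 1 of 3 equal parts of the span by its midpoint. Shares have 95% Wilson intervals and differences have Newcombe intervals, which cover counting error only; a count of 0 also has the limit that 3 counts of the total give. The 6 tests were exact binomial or Fisher's exact tests, two-sided, with Benjamini-Hochberg adjustment and a threshold of 0.05. Named regions are the 3 lowest q-values of each part among regions in both replicates, the fullest and emptiest bin and the longest gaps; other single regions are said to be chosen later. Members, lists and tests were chosen with earlier results of these data known. Python 3.11.15, numpy 2.4.6, pandas 2.3.3 and scipy 1.17.1 were used, and the code was tested on simulated data.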

Additional observations from a re-analysis of the deposited data

How the results depend on the processing

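Of 59 recomputed values of the 6 tests, 49 stayed on the same side of both 1 and the threshold, 6 came to pass it and 4 changed direction. The ratio of V's share of regions to its share of the span passed in all 11 alternatives. It stayed between 0.69 (set against its share of protein-coding genes instead) and 0.83 (without chromosome III). The centre share of V came to pass with q under 0.001 (odds ratio 1.23), without chromosome II (1.21), among regions in both replicates (1.34) and with arms of 25% of the span each (1.26). Over the replicate lists it ranged from 1.21, which passed, to 1.31, which did not. Support in the centre of V against its arms came to pass when neighbours were merged (1.44), was 1.18 with arms of 25% of the span each, and with overlap asked of a single replicate it ranged from 1.05 to 1.27. Support of V against I to IV changed direction without chromosome I (0.87) and with an overlap of 50% of both regions (0.94), and with a single replicate ranged from 1.03 to 1.04. The share of wide regions changed direction without chromosome III (0.95), and over the replicate lists ranged from 0.97 to 1.08. None of these 4 passed the threshold on either side. The cause of these changes was not tested. The left to right ratio ranged from 1.12 to 1.18 over the replicate lists, and from 1.07 to 1.22 over all 8 alternatives. The value of 1.07 left out the emptiest bin, picked from the same counts, and its mirror. With depth unknown, absence from a list does not show absence of binding. No paired analysis was possible because no list was used here for either input.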
